A study of Equus caballus with 9 samples.

Results

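In horse (Equus caballus) tenocyte cultures, 141 of 21689 genes (0.65%) were read in every embryonic stem cell (ESC)-derived library and were almost without reads in every primary library. They were chosen on the counts themselves: 50 counts or more in each of 3 ESC-derived libraries, and 3 counts or fewer in each of 6 primary libraries. The difference between ESC-derived and primary cultures is therefore what defines the genes. It is described here, and calls on it are given as description only. The rule set no upper limit on a gene in an ESC-derived line, so how the genes differed among those lines was not fixed by it.

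The RNA came from 9 cultures grown in 2D, 3 per group, and was read as messenger RNA. The ESC-derived tenocytes were lines at passage 22 (replicate 1), 18 (replicate 2) and 18 (replicate 3). As ESCs they had grown on inactivated mouse feeder cells with leukaemia inhibitory factor. They were then differentiated for 14 days without either of these, in 15% serum and 20 ng/ml TGF-β3. The fetal tenocytes came from gestation days 319, 320 and 321, at passages 6, 3 and 7. The adult tenocytes came from horses 2 to 6 years old, at passages 5, 6 and 4. Fetal and adult cells, together called primary, grew in high-glucose medium with 10% serum and no added TGF-β3. Cell origin, medium, serum, passage, TGF-β3 and contact with mouse feeder cells all changed with the group, and cannot be told apart. No genotype or strain is given in the labels.

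Tenocytes are the fibroblast-like cells that lay down and maintain the collagen matrix of tendon. ESCs can form every cell type of the body, and a growth factor such as TGF-β3, which acts through cell-surface receptor kinases and SMAD proteins, can direct them towards tendon cells. A culture made this way may keep transcripts of earlier or other cell states beside those of the intended cell.

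Genes are given by Ensembl identifier, because none of the identifiers could be matched to a symbol. The roles of the 141 genes are therefore not described. Lists of 15 gene groups, among them pluripotency, epithelial, neural, muscle and tenocyte genes, could not be read, and neither could the markers that would check the labelled cell type. Library totals ran from 20166692 to 23767643 counts, so depth differed little between groups. Levels below are CPM, the count of a gene relative to 1000000 counts of its library, with library sizes scaled by the trimmed mean of M-values (TMM). Gene lengths were not used, so the order of genes by CPM is an order of reads, not of transcript number.

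The 141 genes took a small share of the ESC-derived transcriptome. They held 0.332%, 0.292% and 0.295% of counts in ESC-derived replicates 1, 2 and 3, or 0.306% ± 0.0223 (SD, n = 3). In the primary libraries they held 55 to 145 counts in all, 0.000246% to 0.000719% of counts. Among the 10421 genes with 50 counts or more in each ESC-derived library, these genes made up 1.35%. Their mean level over the ESC-derived lines ran from 2.17 to 94.4 CPM, with a median of 11.9 CPM and quartiles of 6.59 and 23.4. The same median over the 10421 genes was 29.6 CPM, so the genes lay towards the lower end of that set. Their median place by counts was 7799, 8002 and 8096 in ESC-derived replicates 1, 2 and 3. In these libraries 15379, 15192 and 14842 genes had 1 count or more. A mean of 10 CPM or more was reached by 84 of them, 20 CPM by 44 and 50 CPM by 11. The gene of the 141 with most counts was not the same in every library. The top gene of each stood at place 1360, 1687 and 1756 among all genes of ESC-derived replicates 1, 2 and 3. The 10 highest genes together held 26.1% ± 2.11 of the counts of the 141 (SD, n = 3), so no small group of them carried the sum.

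**Figure D1:**
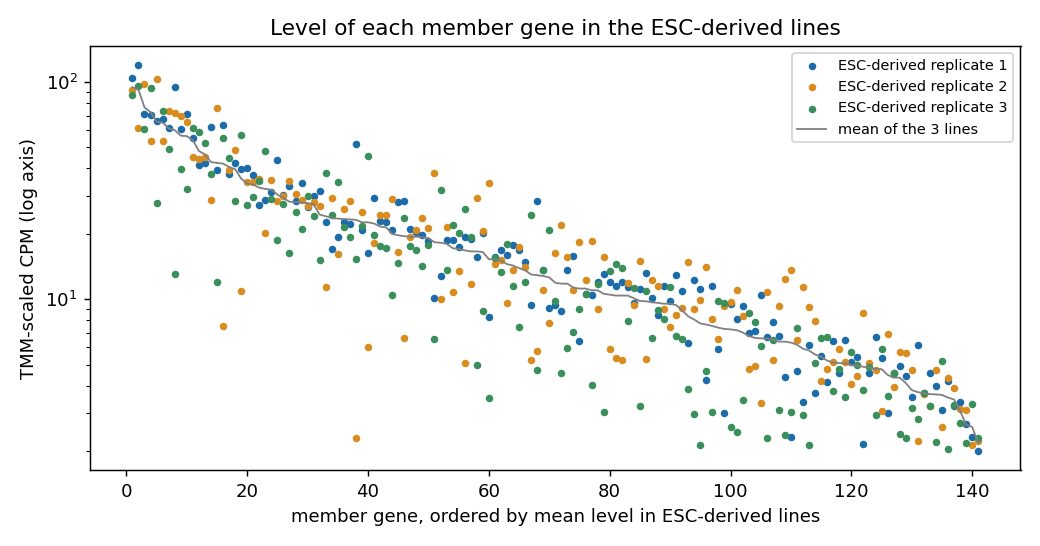
TMM-scaled CPM (log axis) of each of the 141 genes in the 3 ESC-derived libraries, with genes ordered along the horizontal axis by their mean, which the line shows. Levels fell from 94.4 to 2.17 CPM without a step, and single lines lay far from the mean at many ranks.

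The gene with the highest mean level was ENSECAG00000009118. It held 2653, 2240 and 2160 counts in ESC-derived replicates 1, 2 and 3, then 0, 3 and 0 in the fetal and 1, 2 and 1 in the adult libraries. The lines were close to each other, at 94.4 ± 8.94 CPM (SD, n = 3), and the highest line was 1.20-fold above the lowest. With 7 counts over the primary libraries, the ratio of its ESC-derived to its primary level was 1670 (exact 95% counting interval 808 to 4140). It was 1380 to 2450 with 1 library left out, highest without fetal replicate 2. Its fitted log2 fold change was 10.39 ± 0.55 (SE) against adult and 10.75 ± 0.57 against fetal cultures. Without fetal replicate 2, which held all 3 of its fetal counts, the fitted change against fetal cultures was 14.04, a value set by the prior count and not a measurement. These values describe a gene that was picked for the same difference, so no p is given.

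The gene next in level behaved differently among the lines, with 3036, 1488 and 2380 counts. It held 2 counts in fetal replicate 1 and none in the other 5 primary libraries, which gave the highest ratio of the genes with any primary count, 5710 (exact 95% counting interval 1580 to 47100). With fetal replicate 1 left out it was at 0 in primary libraries, and at least 3160-fold higher in ESC-derived cultures against 3 counts over the other 5. The gene at rank 5 held 1683, 2509 and 688 counts in the ESC-derived libraries, 2 in fetal replicate 2 and 1 in adult replicate 3. ESC-derived replicate 2 was the highest line for it and replicate 3 the lowest, 3.74-fold apart in CPM. At the bottom of the order, the gene with the lowest level held 51, 54 and 57 counts, 1 count in fetal replicate 3 and 2 in adult replicate 3.

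All 141 genes passed the low-count filter of the fit across genes, which the ESC-derived counts alone were enough to pass. All 141 were called higher in ESC-derived than in adult cultures by edgeR, where 28.3% of 13462 genes tested were called in that direction. They were likewise called against fetal cultures, where the share of all genes was 27.9%. The 3 ESC-derived libraries lay above the 6 primary ones for all 141 by construction, and for 29% of the genes tested. The ratio of ESC-derived to adult level ran from 67.4 to 4060, with a median of 407, for the 87 genes with an adult count. The ratio to the fetal level ran from 50.4 to 2830, with a median of 401, for the 117 genes with a fetal count. The median fitted log2 fold change over the 141 genes was 9.61 against adult and 8.73 against fetal cultures, and -0.01 and -0.03 over all genes tested. For the ratios of level, the 54 genes at 0 in adult and the 24 at 0 in fetal libraries were also placed at a bound. That bound is the ratio that 3 counts over the group give. The median log2 ratio of level over the 141 genes was then 8.35 to adult and 8.27 to fetal cultures. Both comparisons use the same ESC-derived libraries and both entered the rule, so nothing is read from these counts. In bulk RNA, fewer cells that express a gene and less of its RNA in each cell cannot be told apart.

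Complete absence from the primary libraries was the exception. There were 17 genes at 0 in all 6, a count that allows up to 0.0243 CPM over these libraries. The other 124 held 1 to 11 counts over the 6 libraries, and the median over the 141 was 3. The highest of the 17 was 44th in level, with 531, 699 and 261 counts in ESC-derived replicates 1, 2 and 3. Set against 3 counts over the 6 primary libraries, it was at least 821-fold higher in ESC-derived cultures, and the lowest of the 17 at least 106-fold. For the 124 genes with primary counts the ratio ran from 72.5 to 5710, with a median of 514, and it was 100 or more for 118. Intervals, bounds and the limit on 0 counts cover counting error only, and reads copied by PCR are not independent molecules.

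Genes at 0 in every primary library were mostly those with fewer reads in ESC-derived cultures. With the genes split by level into 3 sets of 47, 1 of the highest set, 4 of the middle set and 12 of the lowest set were at 0. The highest set held 243 primary counts, the middle set 197 and the lowest set 115. Relative to the ESC-derived level this was 0.109%, 0.261% and 0.378%, so the primary counts rose more slowly than the ESC-derived ones. The limit of 3 counts per library caps these sums.

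The few primary counts were not spread evenly over the libraries. One count or more was found for 83, 85 and 50 of the 141 genes in fetal replicates 1, 2 and 3. In adult replicates 1, 2 and 3 it was found for 43, 39 and 55 genes. Fetal replicates 1 and 2 therefore stood above the other 4 libraries, and fetal replicate 3 lay within the adult range. As CPM of the library total, the sum over the 141 genes was 5.50, 7.19 and 3.56 in the fetal and 2.69, 2.46 and 4.06 in the adult libraries. The means were 5.42 ± 1.82 in fetal and 3.07 ± 0.865 in adult cultures (SD, n = 3 each), and the groups overlap.

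Over 6 libraries, 80 genes had counts in both fetal and adult cultures, 37 in fetal cultures alone and 7 in adult cultures alone. The fetal sum was above the adult sum for 81 genes, below it for 26 and equal for 34. The limit of 3 counts caps these sums, and the same splits over other genes were not taken. No fetal excess is therefore read from them. For single libraries, a reference is 1850 other genes. They also held 3 counts or fewer in each primary library, and at least 1 count in any. Of these, 36.8%, 33.8% and 38.5% were read in fetal replicates 1, 2 and 3, and 34.9%, 25.6% and 38.4% in adult replicates 1, 2 and 3. Against this, 58.9% and 60.3% of the 141 genes were read in fetal replicates 1 and 2, and 27.7% to 39% in the other 4 libraries. The 141 genes include 17 at 0 in all 6 libraries and the 1850 include none, so the shares have unlike bases. The 1850 also needed no ESC-derived counts and were not matched to the 141 in primary counts. The shares are therefore given side by side as description only. Over the 1850 genes, fetal replicates 1 and 2 did not stand above all of the other 4 libraries.

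**Figure D2:**
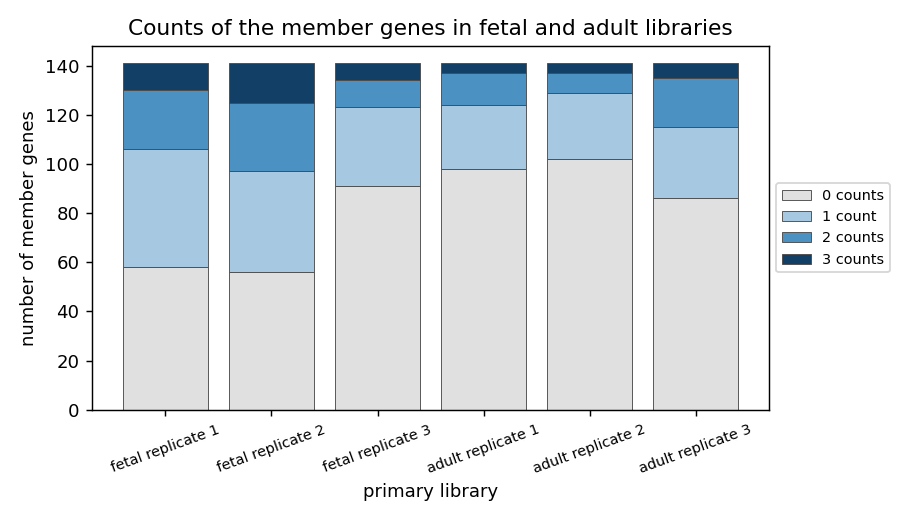
Number of the 141 genes with 0, 1, 2 or 3 counts in each of the 6 primary libraries. Fetal replicates 1 and 2 have 58 and 56 genes at 0 counts, and the other 4 libraries have 86 to 102.

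In the edgeR fit, none of the 141 genes was called between fetal and adult cultures, and 0% of the 13462 genes tested were called. The rule caps the 141 at 3 counts in each of these libraries, which leaves little to call. No likeness of the groups is read from it. At an unadjusted p under 0.05 there were 13 of the 141 (9.22%), 12 of them higher in fetal cultures, where 4.32% of all genes passed. These shares are not alike: the rule held the 141 genes to 3 counts or fewer in all 6 libraries compared, and they passed the filter through their ESC-derived counts, so nothing is read from the difference. The lowest edgeR adjusted p among the 141 was 0.919. The 13 became 7 with DESeq2 and 2 with limma-voom, which called none of the 141 either. Without ESC-derived replicate 1, fetal replicates 1 or 2, or adult replicates 1, 2 or 3 the number was 6, 5, 6, 6, 5 and 4 in that order, and it was 9 to 10 without any other library. The median fitted log2 change of fetal over adult was 0.69 over the 141 genes and 0 over all genes tested. For the 54 genes at 0 in adult and the 24 at 0 in fetal libraries, the size of the fitted change is set by the prior count. For the others it rests on a few counts, capped at 3 in each library by the rule. No fetal excess is therefore read from the value 0.69. Leaving out 1 fetal or adult library gave 0.15 to 1.21, lowest without fetal replicate 2 and highest without adult replicate 3.

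The ESC-derived lines did not express the 141 genes equally. The ratio of the highest to the lowest line had a median of 1.84 over the 141 genes, with quartiles of 1.42 and 3.01. Over the 10421 genes with 50 counts or more in each ESC-derived library the median was 1.33, with quartiles of 1.18 and 1.60. A ratio of 2 or more was found for 64 of the 141 (45.4%) and for 11.5% of the 10421. A ratio of 4 or more was found for 25 (17.7%) and for 2.15%. With only replicates 1 and 2 compared, 19.1% of the 141 genes and 3.49% of the 10421 reached a ratio of 2. For replicates 1 and 3 these shares were 25.5% and 4.73%, and for replicates 2 and 3 they were 37.6% and 9.28%, so the wider spread was present in each pair of lines. Each line is 1 library, so these ratios have no replicate and no test, and they join line, passage and culture.

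The wider spread was found at most levels of expression. Between 5 and 10 CPM the median ratio was 2.48 for 35 of the genes and 1.47 for all genes at that level. Between 10 and 20 CPM it was 2.15 for 40 genes and 1.36 for all. Between 20 and 50 CPM it was 1.60 for 33 genes and 1.29 for all, and from 50 to 100 CPM 1.75 for 11 genes and 1.28 for all. Under 5 CPM, where counting error weighs most, the 22 genes had a median of 1.52 and all genes 1.49. At that level the floor of 50 counts in each line also limits the ratio, which reached at most 4.75 over all genes. A ratio of 2 or more was found there for 36.4% of the 22 genes and for 16.8% of all. A further reference is the 2950 genes called higher in ESC-derived cultures in both comparisons, with 50 counts or more in each line and outside the 141. Their median ratio was 1.37, and 15% of them reached a ratio of 2. These genes had to pass a test in which a wide spread between lines counts against a call. The 141 were chosen on counts alone, so the sets were not chosen alike and nothing is read from this difference.

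**Figure D3:**
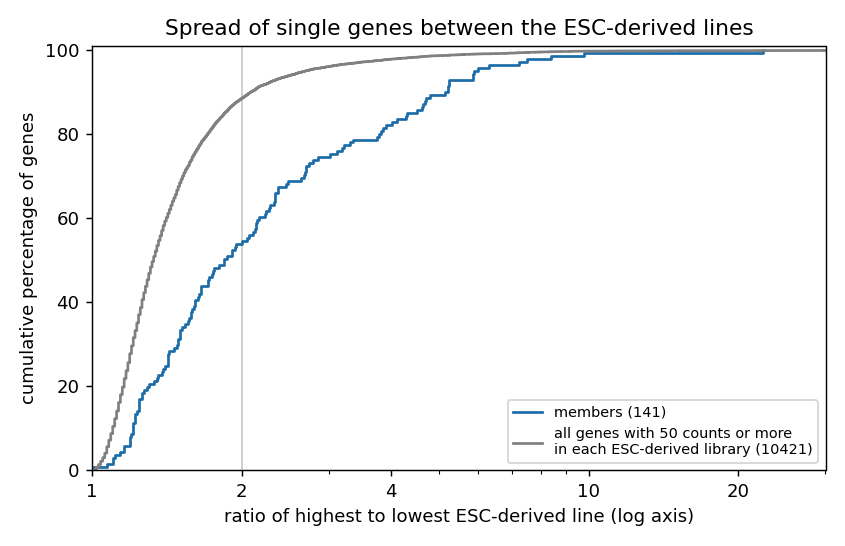
Cumulative percentage of genes by the ratio of the highest to the lowest ESC-derived line (log axis, drawn up to 30), for the 141 genes and for all 10421 genes with 50 counts or more in each of these libraries. The curve of the 141 genes lies to the right, with 45.4% of genes at a ratio of 2 or more against 11.5%.

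The widest ratio was that of ENSECAG00000016325. It held 1319, 56 and 381 counts in ESC-derived replicates 1, 2 and 3, 1 count in fetal replicate 2 and none elsewhere. Its level was 51.8, 2.31 and 15.3 CPM, and the highest line was 22.5-fold above the lowest. It entered the set with 56 counts in its lowest library, close to the limit of 50. The ratio of its ESC-derived to primary level was 2900 (exact 95% counting interval 520 to 115000). Without ESC-derived replicate 1 that ratio was 1100. Without fetal replicate 2 the gene was at 0 in the primary libraries and at least 814-fold higher in ESC-derived cultures, against 3 counts over the other 5. Against the adult libraries, all at 0, it was at least 487-fold higher. Against fetal cultures the ratio was 1440 (exact 95% counting interval 258 to 57000). These values, too, describe the difference by which the gene was picked.

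Other genes had their own order of lines. The gene with the second widest ratio, 9.79, held 210, 831 and 87 counts in replicates 1, 2 and 3, so that replicate 2 stood apart on the high side. The next, at 8.41, held 1613, 183 and 1379 counts, with replicate 2 apart on the low side. The gene with the fourth widest ratio, 7.52, held 414, 147 and 1133 counts and was highest in replicate 3. The fifth, at 7.25, held 2408, 1755 and 325 counts and was lowest in replicate 3. At the other end, the gene with the narrowest ratio, 1.01, held 94, 89 and 92 counts.

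One line was low more often than the others. ESC-derived replicate 3 was the lowest line for 73 of the 141 genes (51.8%), replicate 2 for 45 and replicate 1 for 23. Over the 10421 genes the lowest line was replicate 3 for 40.7%, replicate 2 for 36.6% and replicate 1 for 22.7%. Replicate 3 lay at least 2-fold below both other lines for 24 of the 141 genes (17%), where it did so for 2.49% of the 10421. Replicate 2 did so for 10 of the 141 and replicate 1 for 1, and for 1.08% and 0.163% of the 10421. On the high side, replicate 2 lay at least 2-fold above both other lines for 10 genes, replicate 3 for 4 and replicate 1 for 3. Over the 10421 genes these shares were 1.27%, 0.518% and 0.451%, against 7.09%, 2.84% and 2.13% of the 141. When libraries were scaled by their totals alone, replicate 3 was lowest for 64 of the 141 genes, and for 27.7% of the 10421.

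Taken in pairs, replicates 1 and 3 were most alike in the order of the 141 genes. The correlation of log2 CPM across genes (Pearson's r) was 0.83 for replicates 1 and 3, 0.766 for 1 and 2, and 0.626 for 2 and 3. Over the 10421 genes these were 0.965, 0.969 and 0.936. The 141 genes span a narrower range of levels, which lowers a correlation, and genes are not independent replicates. The median log2 ratio of replicate 1 over replicate 3 was 0.27 and that of 2 over 3 was 0.26, against 0.01 and 0.03 over the 10421 genes. Replicates 1 and 2 differed by a median of 0.04. The median absolute log2 ratio was 0.37 for replicates 1 and 2, 0.50 for 1 and 3, and 0.66 for 2 and 3, where it was 0.22, 0.22 and 0.32 over the 10421 genes.

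**Figure D4:**
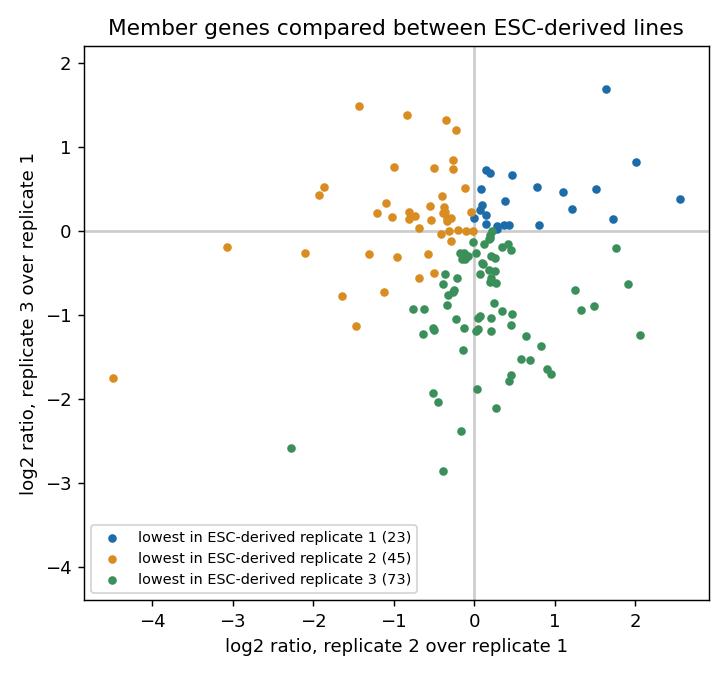
Log2 ratio of ESC-derived replicate 2 over replicate 1 (horizontal) and of replicate 3 over replicate 1 (vertical) for each of the 141 genes, coloured by the line in which the gene was lowest. The 73 genes lowest in replicate 3 extend downwards, and the gene far to the left is ENSECAG00000016325.

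Salmon divides a read among transcripts that match it, which can leave a fractional count. A deposited value with any fractional part, in at least 1 library, was found for 12 of the 141 genes (8.51%) and for 25.8% of the 10421 genes. For those 12 the division between copies is uncertain, and a whole count does not show that no read was shared. The rule capped the counts of the 141 genes in every primary library, and did not cap those of the 10421. The median ESC-derived level of the 141 was also lower, at 11.9 against 29.6 CPM. The 141 genes therefore had fewer reads in which a fraction could show, and nothing is read from the difference between the shares.

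The limits of the rule fell on a slope, not at a gap. With 50 counts or more in each ESC-derived library, 17 genes had a highest primary count of 0, 57 had 1 or fewer, 102 had 2 or fewer and 141 had 3 or fewer. Allowing 4 counts gave 181 genes, 5 gave 202 and 10 gave 300. Just inside the limit, 39 genes had a highest primary count of 3, with a median of 424 counts per ESC-derived library. Just outside it, 40 genes had a highest primary count of 4, with a median of 507. On the ESC-derived side, 14 of the 141 genes had 51 to 59 counts in their lowest line. A further 16 genes were kept out with 40 to 49.

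**Figure D5:**
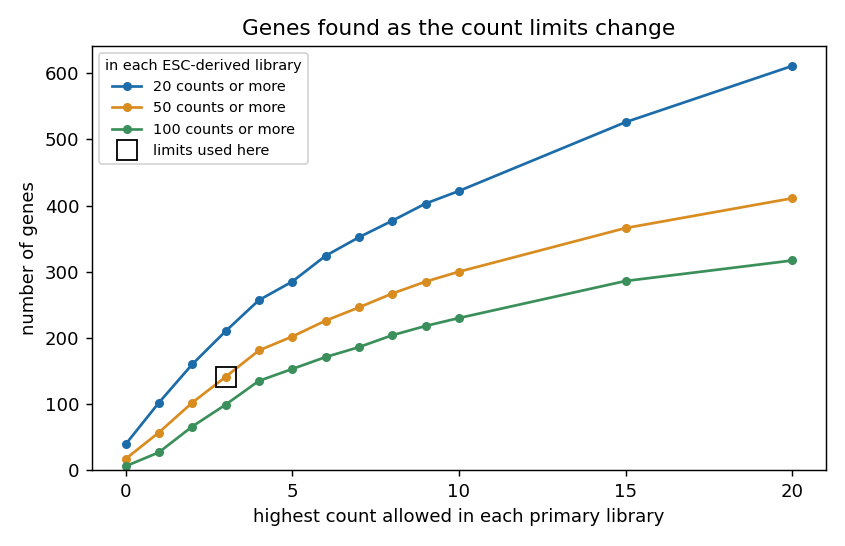
Number of genes by the highest count allowed in each primary library (horizontal), for a minimum of 20, 50 or 100 counts in each ESC-derived library. The curves climb without a step, and the square marks the limits used here, which gave 141 genes.

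Single libraries kept some genes out. ESC-derived replicate 3 alone was under 50 counts for 26 genes, replicate 2 for 21 and replicate 1 for 9. Most of these were present below the limit, and 1, 2 and 1 of them were at 3 counts or fewer in replicates 3, 2 and 1. Among the primary libraries, fetal replicates 1, 2 and 3 alone kept out 20, 18 and 10 genes. Adult replicates 1, 2 and 3 alone kept out 11, 0 and 9. The median count behind these was 4 to 7, and the highest was 1744, in adult replicate 1.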

How the data were processed

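Estimated counts per gene were deposited by the authors, 1 column per library. The submitters' processing notes name Salmon, FastQC and R 3.5.2. For the settings of Salmon, the build and the annotation, the sources used here give nothing. Per the labels, a stranded mRNA kit and paired reads of 100 bases were used. Counts were rounded and fitted over all 9 libraries with edgeR 4.0.16 in R 4.3.3 (TMM scaling, filterByExpr, glmQLFit, glmQLFTest). A gene was called at a Benjamini-Hochberg adjusted p under 0.05. Standard errors came from the F statistic. DESeq2 1.42.0 and limma 3.58.1 with voom were alternatives, as were other scalings, filters and limits and leaving out each library. The procedure was tested on simulated data. A chi-square test of counts gave 62 to 160 for each degree of freedom between libraries of a group, far above sampling noise. The series text calls the lines independent. The fetal cultures differ in gestation day, so they came from different fetuses. For the ESC-derived and adult lines, nothing says that they came from separate animals. The p-values measure the spread between these libraries. The 141 genes and the gene lists were chosen with earlier results of these data known. The identifiers shown are the gene with the highest mean CPM and the gene with the widest ratio between ESC-derived lines; others are given by rank. Of the identifiers, 0 matched a symbol, and 0 of 15 gene lists could be run.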

Additional observations from a re-analysis of the deposited data

How the results depend on the processing

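The settings on residual primary counts, on genes of 10 CPM or more and on the line ratio without fractional counts were added after the data were seen. The number of genes followed the primary limit: 17 genes at 0 counts, 57 at 1 count and 300 at 10 counts, with 226 already at 6. A primary limit of 5, an ESC-derived minimum of 20 or 100, unrounded, thinned or scaled counts and leaving out fractional genes each kept it within 1.5 times of 141, and leaving out 1 library gave 141 to 167. The share of ESC-derived counts was 0.28% without genes with a fractional count and 0.0144% for the 17 genes at 0, because fewer genes were summed. It was 0.294% to 0.314% with 1 line left out. The median ratio between lines was 1.66 with a minimum of 100 counts and 2.00 for the genes at 0; the cause was not tested. Of 2 lines in place of 3, it was 1.29 to 1.58, lowest without replicate 3, and all genes then had 1.16 to 1.25. Scaling left it at 1.84 to 1.89. Leaving out 1 primary library gave 18 to 25 genes at 0 in the rest. Counts of calls over all genes, 7843 against adult and 7780 against fetal cultures, stayed within 1.5 times under the alternatives run, and were 6785 to 8040 and 6683 to 8121 with 1 library left out. All of the 141 genes tested were called higher in each of them, and the filter of 5 CPM in 3 libraries tested 94. The rule chose the genes for this difference, so these calls are no support for it. Between fetal and adult cultures edgeR and limma-voom called 0 genes, DESeq2 called 54 (the cause was not tested), and leaving out 1 library gave 0 to 1, with none of the 141 among them. Neither identifier shown, both chosen by the same rule, changed direction or lost its call where it was tested. ENSECAG00000016325 did not pass the filter of 5 CPM in 3 libraries. No paired analysis was possible because replicate numbers follow the order of deposition and pair nothing. Depth limits the values near 0 counts.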

Other observations

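Among the 10421 genes with 50 counts or more in each ESC-derived library, more were shut out by fetal than by adult libraries. Of them, 233 genes held 3 counts or fewer in each adult library and 167 in each fetal library, and 141 met both limits. The same numbers over genes outside the ESC-derived minimum were not taken, so no trait of the fetal group is read from them. The 92 genes at 3 or fewer in each adult library but above 3 in a fetal one reached a highest fetal count of 4 to 58, with a median of 6, and 70 of them stayed at 10 or fewer. They passed 3 counts in fetal replicates 1, 2 and 3 for 56, 61 and 31 genes, and in all 3 for 12. Summed over the 92 genes, the fetal libraries held 472, 533 and 396 counts and the adult ones 84, 79 and 97, where the ESC-derived ones held 136382 to 156733.

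The 26 genes at 3 or fewer in each fetal library but above 3 in an adult one reached a highest adult count of 4 to 1744, with a median of 6.5, and 18 of them stayed at 10 or fewer. Their sums were 2018, 48 and 164 counts in adult replicates 1, 2 and 3. A single gene with 1744 counts in adult replicate 1 made up most of the first sum. These groups of genes are defined by the counts shown, so their differences are descriptions.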
